A study of Homo sapiens with 10 samples.

Results

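SK-hep1 cells carrying a PSPC1 plasmid were set against SK-hep1 cells carrying the mock control, by RNA-Seq of 1 library each. The pair was chosen by its labels, 2 of the 10 samples of the series, and all genes were considered: the tables list 58302 genes, of which 12410 averaged at least 1 FPKM (fragments per kilobase of gene per 1000000 reads) over both libraries and were compared. SK-hep1 is an established human line that the labels call hepatocellular carcinoma, grown here in DMEM with serum. The full-length PSPC1 cDNA was carried on an HA-tagged pcDNA3.0 plasmid, and the study's methods derived stable clones under G418 or zeocin for animal work, without saying whether the sequenced cells were clones or pools. The study's other SK-hep1 libraries carried PSPC1 with PTK6, the mutant PSPC1-Y523F, or PSPC1-Y523F with PTK6, again 1 library each, and their values are set beside the pair to show which side of it stood apart. With 1 library a condition, no test of the plasmid was possible. Every difference below is a difference between 2 libraries, and intervals on reads cover counting error only.

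PSPC1 (paraspeckle component 1) belongs, with NONO and SFPQ, to the DBHS family of nuclear RNA-binding proteins. These proteins assemble with the long noncoding RNA NEAT1 into paraspeckles, nuclear bodies that hold back some RNAs and proteins, and they also act on transcription and splicing. In liver cancer PSPC1 has been studied as a driver of epithelial-mesenchymal transition (EMT), stemness and metastasis, and the comparison with mock asks what the added protein does to the transcriptome of a line without PSPC1 reads in mock.

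PSPC1 had 0 reads in mock and 209 reads in the PSPC1 library, with an exact 95% Poisson interval of 182 to 239 reads. Its level with the plasmid was 7.01 FPKM, and 3 reads in mock would have given 0.0938 FPKM, so that PSPC1 was 74.7-fold higher with the plasmid than that floor. The other transfectants had 930 reads with PSPC1/PTK6, 71 with PSPC1-Y523F and 2539 with PSPC1-Y523F/PTK6, so that the PSPC1 library had fewer than both libraries with PTK6 and more than PSPC1-Y523F. PTK6, the tyrosine kinase that the study pairs with PSPC1, had 277 reads in mock and 307 in the PSPC1 library, a log2 difference of 0.26.

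The genes around PSPC1 on chromosome 13 had no reads in either library. From TUBA3C to XPO4, a stretch at chr13:19173770-20903048 of GRCh38, the 13 protein-coding genes other than PSPC1 had 0 reads in mock and 0 in the PSPC1 library. Over all 5 SK-hep1 libraries these genes gave 1 read, in MPHOSPH8 with PSPC1-Y523F, whereas 12 of the 13 had reads in the mock library of Mahlavu, another liver cancer line, 4332 in all. These genes included ZMYM2 (837 reads in Mahlavu mock), the nuclear export receptor XPO4 (943 reads) and MPHOSPH8 (764 reads). Reads returned at the next gene, LATS2, with 4931 in mock and 7869 in the PSPC1 library. PSPC1 was thus the one gene of the stretch with more than 1 read in any SK-hep1 library. In Mahlavu mock PSPC1 had 1582 reads, more than the 209 in the SK-hep1 PSPC1 library.

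The libraries were of like depth, 21676724 reads on genes in mock and 20222367 with PSPC1, with 19535 and 19630 genes detected. The cell type of the line was checked on marker genes. Of 10 hepatocyte markers, 8 had at most 3 reads in each library, with ALB, APOA1, APOB, TTR, CYP3A4, TF and FGB at 0, and the summed reads were 715 in mock and 703 with PSPC1. Of 10 endothelial markers, 7 had at most 3 reads in mock and 5 with PSPC1. EGFL7 and ENG carried most of the 9397 and 8892 summed reads, while KDR and ERG were at 0. Of 7 fibroblast markers, 3 had at most 3 reads in each library, and the summed reads were 7735 and 8589. KRT8 and KRT18, keratins of simple epithelia, had 160260 and 66478 reads in mock, whereas EPCAM and ESRP1 were at 0 in both. Most defining hepatocyte markers were thus at or near 0 in a line that the labels call hepatocellular carcinoma. Among blood markers PTPRC, CD3E and HBB were at 0 and CD14 had 432 reads in mock and 134 with PSPC1. In bulk RNA, fewer cells of a type and less RNA per cell cannot be told apart.

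Most of the transcriptome differed little. Of the 12410 genes compared, 11719 (94.4%) lay within 2-fold, 419 (3.38%) were at least 2-fold higher with PSPC1 and 272 (2.19%) at least 2-fold lower. The median log2 difference was -0.03, 5829 of the 12410 genes were above 0, and the middle 90% of genes ran from -0.75 to 0.84. Counts of list members past 2-fold, or above or below 0, are to be read against these values. At 4-fold the counts were 77 higher and 34 lower. All differences are PSPC1 minus mock on the scale of log2(quantile-normalised FPKM + 1), which understates the change of low genes.

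Against the other SK-hep1 libraries, mock stood apart at least as often as PSPC1 did. Among the 419 higher genes, mock was the lowest of the 5 libraries for 298, and PSPC1 was the highest for 208. Over all genes compared these positions were held by 15.4% and 15.3%. Among the 272 lower genes, mock was the highest of the 5 for 180, and PSPC1 was the lowest for 115, against 21.1% and 13.1% of all genes. Since the pair itself chose these genes, the counts only describe where the other 3 transfectants fell.

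**Figure D1:**
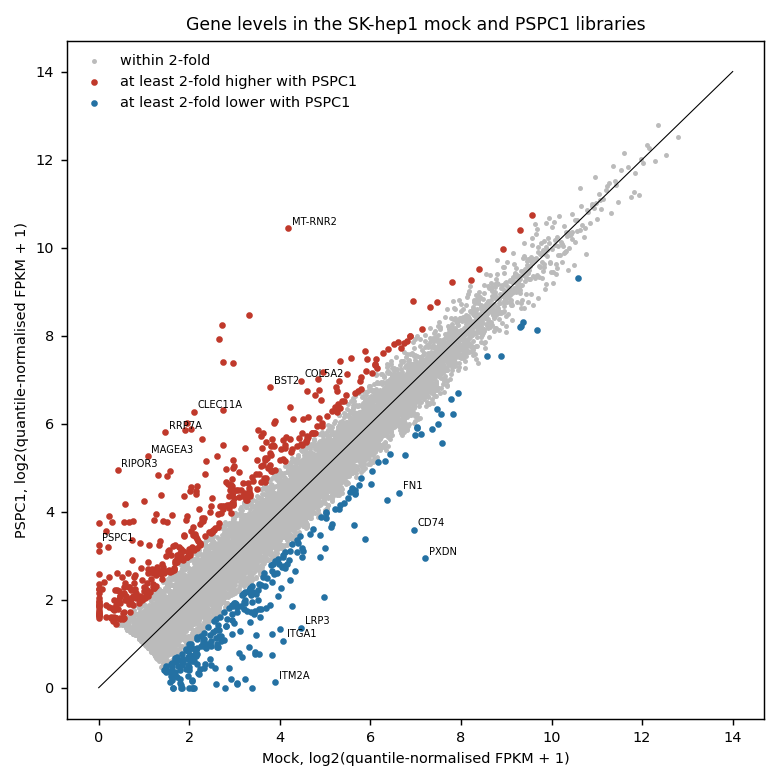
Gene levels in mock (x axis) and PSPC1 (y axis), each as log2(quantile-normalised FPKM + 1), with 1 point per compared gene and the line of equal level. The 419 genes at least 2-fold higher lie above the grey band, led by MT-RNR2, and the 272 lower genes lie below it, led by PXDN.

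The largest falls included PXDN of the matrix and CD74 of antigen presentation, among genes of other kinds. In the lists of reads that follow, the order is mock, PSPC1 alone, PSPC1 with PTK6, the Y523F mutant alone and the mutant with PTK6. PXDN (peroxidasin, which forms sulfilimine cross-links in collagen IV) had 5098, 174, 3067, 217 and 1377 reads. It was the largest fall of the pair, with a log2 difference of -4.27 and a read ratio 27.3 times lower with PSPC1 (95% interval 23.5 to 32.0). It was lowest with PSPC1 or PSPC1-Y523F alone and higher in both libraries with PTK6. LRP3, of the LDL receptor family, had the same order, with 936, 54, 669, 66 and 173 reads and a difference of -3.11. GFPT2, an enzyme of the hexosamine pathway, followed it too, with 243, 10, 158, 8 and 87 reads (-3.07). CD74, the invariant chain of MHC class II, had 2377, 171, 1679, 173 and 303 reads, a difference of -3.36.

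Other large falls were genes read in mock and in little else. TMPRSS15 (enteropeptidase) had 308, 0, 1, 0 and 0 reads. It was 95.8-fold lower when the PSPC1 library was set at 3 reads, with a lower 95% bound of 77.4. The membrane protein gene ITM2A had 236, 1, 0, 1 and 7 reads, a difference of -3.77. DAPK1, a death-associated kinase, had 386, 5, 6, 3 and 16 reads (-3.03). TRIM55, a muscle ring-finger gene, had 258, 2, 7, 4 and 2 reads (-2.93), and SLCO2B1, an organic anion transporter, had 221, 1, 10, 3 and 32 (-2.96). In these 5 genes mock stood above all 4 transfectants, with and without PTK6 and with either form of PSPC1. ITGA1, the alpha1 integrin subunit that binds collagen, had 1220, 67, 299, 49 and 23 reads, a difference of -3.01, and mock was again the highest. By a rule set after the values were seen, 7 genes with at least 100 mock reads kept 3 or fewer with PSPC1. The others besides those named were GRB10 (176 and 1 reads), ELMO1 (146 and 0) and DMD (161 and 1).

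The largest rises were more mixed. RIPOR3 had 11, 1291, 656, 746 and 2036 reads and the largest difference outside the mitochondrial genome, 4.52, a read ratio of 126 with a 95% interval of 70.1 to 253. MAGEA3, a cancer-testis antigen on the X chromosome, had 25, 1006, 1531, 1340 and 1582 reads (4.18). RTP3 had 3, 318, 285, 358 and 322 reads (3.66). In these 3 genes all 4 transfectants were high and mock alone was low. CLEC11A, a secreted growth factor of stromal and bone cells, had 69, 1708, 113, 1404 and 1075 reads (4.16), high in all but mock and PSPC1/PTK6. LINC00942, a long noncoding RNA, had 121, 2932, 1976, 2424 and 46 reads (4.06). ALDH1L1, a folate enzyme, had 15, 631, 259, 253 and 194 reads (3.60), with PSPC1 the highest. The unnamed lincRNA ENSG00000280614, at chr21:8393419-8394341, had 0, 198, 2, 0 and 0 reads and was read in the PSPC1 library almost alone. It was 70.7-fold higher when mock was set at 3 reads, and the lower 95% bound of its read ratio was 57.0. The remaining 3 of the 10 largest rises, RRP7A, RRP12 and RRP9, belonged to a set of genes that moved as a block.

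That block was made mostly of genes named for ribosomal RNA. Cells make ribosomal RNA in the nucleolus, where RRP proteins (ribosomal RNA processing) trim and modify the precursor, and the mitochondrion makes its own from its circular genome. RRP7A had 49, 1743, 63, 104 and 2282 reads, RRP12 had 87, 1967, 77, 143 and 3718, and RRP9 had 87, 1701, 65, 109 and 2982. In each of them PSPC1 and PSPC1-Y523F/PTK6 were high together and the other 3 libraries low together. All 8 protein-coding genes with an RRP symbol that were compared had this order, with differences of 1.82 (RRP15) to 4.34 (RRP7A) and a median of 3.43. It was also the order of METTL25B, once named RRNAD1 (68, 584, 126, 62 and 480 reads), of the tRNA methyltransferase FTSJ1 (486 in mock and 2137 with PSPC1) and of MRM2, which methylates mitochondrial ribosomal RNA (117, 381, 88, 179 and 512). METTL25B, FTSJ1 and MRM2 were chosen after their values were seen. Summed over them and the 8 RRP genes, the levels in RPM (reads per 1000000 reads on genes) were 52.1, 609, 49.3, 68.3 and 760. In the Mahlavu libraries they were 79.7, 72.6 and 68.7. Neither the labels nor the methods set PSPC1 and PSPC1-Y523F/PTK6 apart from the rest.

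A stretch of the mitochondrial genome followed the same order. MT-RNR2, the large mitochondrial ribosomal RNA, had 526, 49924, 2077, 1177 and 22061 reads, a difference of 6.26 and the largest of all genes. MT-RNR1, the small one, had 93, 4691, 335, 134 and 3973 reads. MT-CYB, which codes for cytochrome b, had 192, 8508, 327, 829 and 9569 reads (5.16), and MT-ND5 had 190, 5930, 340, 843 and 5707 (4.65). With MT-ND6 and MT-TP these genes lie next to one another on the circular genome, and all 6 had PSPC1 and PSPC1-Y523F/PTK6 above the other 3 libraries. The other 10 mitochondrial mRNAs did not: 0 of 10 had that order, and their median difference was 0.72. MT-CO1 had 39940, 65000, 99468, 152346 and 42891 reads, which is 1843 RPM in mock and 1767 RPM, the lowest, with PSPC1-Y523F/PTK6. Over all genes compared, 3.70% had PSPC1 and PSPC1-Y523F/PTK6 above the other 3 libraries.

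Genes of the same process with other names did not share it. Among ribosome biogenesis factors without an RRP symbol, 58 were compared, 2 had that order, and their median difference was -0.41. The labels describe poly-A selection, whereas the study's methods name ribosomal RNA depletion. The part of library preparation or read filtering in this block was not tested.

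Whole stretches of chromosomes also differed between the pair. The compared genes were cut into 310 windows of about 40 neighbours, and the window medians ran from -0.59 to 0.61, with 256 windows within 0.25 of 0. Adjoining windows past 0.25 in 1 direction formed 10 runs with 1836 genes, 14.8% of those compared. The run with the median furthest from 0 was on chromosome 12. At chr12:105235290-133214831, 174 of 188 genes were below 0, with a median of -0.51. At chr19:35154730-58599801, 394 of 453 genes were above 0, with a median of 0.43. On chromosome 13 the whole set of 200 genes had a median of -0.41, and 174 were below 0. A run at chrX:102720688-156025710 had a median of 0.35 over 161 genes, and runs on chromosomes 1, 5, 10, 11 and 17 had medians of -0.46 to -0.29.

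In 7 of these runs it was mock that departed from the other libraries. Against the mean of the 5 libraries, the genes of the chromosome 12 run stood at 0.43 in mock and at -0.08, -0.21, -0.01 and -0.12 in the transfectants, in the order given above. Those of chromosome 13 stood at 0.34 in mock and between -0.12 and -0.04 in the transfectants. On chromosome 19 mock stood at -0.28 and PSPC1 at 0.14, and on chromosome X at -0.24 and 0.10. At chr1:16352575-28335967 mock stood at 0.35, with the transfectants between -0.10 and -0.02, and at chr5:134148935-177409576 mock stood at 0.26, with the transfectants between -0.09 and -0.03. The other run on chromosome 5 stood at 0.21 in mock. The runs on chromosomes 10, 11 and 17 had another order. At chr11:842808-57661868, mock, PSPC1/PTK6 and PSPC1-Y523F/PTK6 stood at 0.15, 0.15 and 0.10, with PSPC1 at -0.19 and PSPC1-Y523F at -0.22. At chr17:47649476-63608365 the same 3 libraries stood at 0.20, 0.17 and 0.02 and the same pair at -0.21 and -0.20.

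The runs held a share of the gene calls. Of the 614 genes in higher runs, 72 (11.7%) were at least 2-fold higher, and of the 1222 genes in lower runs, 62 (5.07%) were at least 2-fold lower, against 3.38% and 2.19% of all genes. Since the runs were formed from the same differences, larger shares within them follow from that choice. Chromosome 19 alone held 85 of the 419 higher genes. Its KRAB zinc finger genes, repressors of transcription that are clustered there, had a median of 0.18 over 41 compared members, 32 of them above 0 and 2 (ZNF714 and ZNF382) past 2-fold. Relative to the median of their own windows this became -0.07.

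The DBHS partners and paraspeckle genes differed little beyond PSPC1 itself. Of 29 paraspeckle genes compared, PSPC1 was at least 2-fold higher and none at least 2-fold lower, but 25 were below 0 and the median was -0.24. Among all 12410 genes compared, 5829 were above 0, 3.38% were at least 2-fold higher and 2.19% lower. SFPQ had 11374, 6689, 7131, 7479 and 10576 reads (-0.64). NONO, with 18834 and 15855 reads, differed by -0.11. The scaffold RNA NEAT1 had 731 reads in mock and 1076 with PSPC1, a difference of 0.62. Mock was the highest of the 5 libraries for 18 of the 29 genes, against 21.1% of all genes compared. Splicing regulators, a related group, had a median of -0.26 over 38 genes with 31 below 0 and 0 past 2-fold in either direction, led by SRSF1 (-0.86, 2899 and 1398 reads) and TRA2A (-0.84).

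At the RNA level, the EMT regulators and markers that the study followed moved in both directions. Of 8 EMT transcription factors compared, SNAI2 (Slug) was the only gene past 2-fold, with 465, 94, 184, 381 and 415 reads and a difference of -1.80. PSPC1 was the lowest of the 5 libraries and mock the highest. TWIST1 had 426 reads in mock and 725 with PSPC1 (0.86), and ZEB1 had 365 and 184 (-0.68). SNAI1 had 1 and 2 reads, CDH1 (E-cadherin) 0 and 4, and CDH2 (N-cadherin) 4 and 0, too few to compare. VIM (vimentin) had 21396 and 14228 reads (-0.49).

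Mesenchymal and epithelial genes likewise split. Of 31 mesenchymal genes compared, 2 were at least 2-fold higher and 2 lower, with a median of 0.10. Among all genes compared, 3.38% were at least 2-fold higher and 2.19% lower. FN1 (fibronectin), a core matrix protein, had 8298, 1476, 1068, 1781 and 4062 reads (-2.20), lower in every transfectant than in mock. S100A4 had 4506, 9235, 9531, 8129 and 9202 reads (1.11), higher in every transfectant, and so was COL5A1 (3081, 6632, 5836, 8237 and 8393 reads, 1.18). TGFBI was lower (-1.17) on 61 and 12 reads. Of 19 epithelial genes, 4 were at least 2-fold higher: TJP3 (1.52), SPINT2 (1.26), JUP (1.21) and KRT19 (1.06). KRT7 was lower (-1.82), with 376, 81, 310, 78 and 499 reads, lowest with PSPC1 or PSPC1-Y523F alone. JUP (plakoglobin, a junction protein) had 1219, 2727, 5060, 1015 and 1866 reads, so that PSPC1-Y523F lay below mock while PSPC1 lay above it.

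RNA of the stem cell and MYC genes listed here was mostly near mock or below it, KRT19 aside. In SK-hep1 the study read its stem cell factors as protein. Its gene set enrichment of these data reported stemness and c-Myc signatures up with PSPC1, and the lists here are not those signatures. NANOG and SOX2 had 0 reads in both libraries and POU5F1 had 11 and 3. Of 13 liver cancer stem cell markers compared, KRT19 was at least 2-fold higher and KIT (460 and 87 reads, -1.76) lower, and CD44 had 16257 and 9153 reads (-0.73). MYC itself had 5215, 5032, 8658, 4725 and 4921 reads, a difference of 0.10. Of 50 MYC targets compared, 44 were below 0 and the median was -0.44, with 3 at least 2-fold lower: MRTO4 (-1.22), NME1 (-1.15) and PUS1 (-1.10). The 2 that were at least 2-fold higher were RRP12 and RRP9 of the block above, and without them the median was -0.46. Mock stood highest of the 5 libraries for 23 of the 50 and PSPC1 lowest for 14, against 21.1% and 13.1% of all genes compared. Of all 12410 genes, 5829 were above 0.

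At the RNA level, Wnt and TGF-beta genes moved in both directions. The study's evidence on Wnt in SK-hep1 included secreted Wnt3a protein and reporter activity. Its gene set enrichment of these data reported Wnt/beta-catenin and TGF-beta signatures up with PSPC1, and the lists here are not those signatures. Of 27 Wnt feedback targets and TCF factors, 3 were at least 2-fold higher and 4 lower, with a median of -0.10. Those directions held 3.38% and 2.19% of all genes compared. The secreted Wnt antagonists DKK3 (1002 and 3645 reads, 1.91) and SFRP1 (4492 and 8734, 1.03) and the ligand WNT7B (14 and 130, 1.80) were higher. The receptors FZD8 (722 and 185, -1.43) and LGR4 (130 and 38, -1.06) were lower, and so was CCND1 (cyclin D1), with 10265, 4402, 4781, 9927 and 10447 reads (-1.03). CTNNB1, which codes for beta-catenin, differed by -0.10, and WNT1 and WNT3A had 0 reads in both. Of 26 TGF-beta pathway genes, LTBP3 (1.65) and TGFB2 (493 and 1335 reads, 1.37) were higher and ID2 (-1.28) lower, with a median of -0.12. SMAD2 and SMAD3 differed by -0.12 and 0.10.

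Extracellular matrix and adhesion genes were spread widely in both directions. Of 37 matrix glycoproteins, 6 were at least 2-fold higher and 7 lower, around a median of -0.07, against 3.38% and 2.19% of all genes. After CLEC11A, the largest rises were CCN5 (190, 952, 863, 320 and 1097 reads, 2.15), EFEMP1 (121, 536, 434, 336 and 541, 2.01) and the laminin chain LAMB1 (1.27). LAMA1, another laminin chain, was lower (-1.35). Of 19 collagens, 4 were higher and 0 lower. COL5A2, a chain of fibrillar collagen V, had 1989, 11407, 13096, 8843 and 6040 reads, a difference of 2.52 and a read ratio of 6.15 (95% interval 5.86 to 6.45). It was higher in every transfectant, as its partner chain COL5A1 was. COL6A3 had 522, 1497, 42, 5207 and 125 reads (1.41), higher with PSPC1 or PSPC1-Y523F alone than in mock and lower in both libraries with PTK6.

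Integrins and proteases were divided too. Of 33 integrin and focal adhesion genes, ITGB4 (1406, 6373, 7929, 3756 and 13532 reads, 2.17), TNS3 (1.25) and ACTN4 (1.08) were at least 2-fold higher and ITGA1 alone lower. The shares of all genes compared were 3.38% and 2.19%. ITGB4, the laminin-binding beta4 subunit, was higher in each transfectant. Of 24 matrix proteases and inhibitors, MMP11 (8 and 64 reads, 1.59) was higher, and MMP9 (581, 102, 1612, 363 and 280 reads, -1.90), CTSL (5918 and 1730, -1.60) and SERPINE2 (1232 and 358, -1.46) were lower. MMP9, a gelatinase, was lowest of the 5 libraries with PSPC1 and highest with PSPC1/PTK6. Of 26 YAP and TEAD genes, TEAD2 (388, 1192, 1067, 908 and 1012 reads, 1.62) and VGLL3 (1.45) were higher and AMOTL1 (-1.13) lower, with a median of 0.29.

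Interferon-stimulated genes were mostly lower. They are the antiviral genes that type I interferon switches on through the ISGF3 complex, which binds the interferon-stimulated response element. Of 44 compared, 39 were below 0, 6 were at least 2-fold lower and 1 was higher, and the median was -0.56 against -0.03 for all genes. Over all 12410 genes, 5829 were above 0, 2.19% were at least 2-fold lower and 3.38% higher. With a pseudocount of 5 the list median was -0.37. OAS1 had 217, 23, 1062, 16 and 363 reads (-2.27), and OAS2, its neighbour in the family of oligoadenylate synthetases, had 462, 88, 2951, 71 and 209 (-1.79). IFI6 had 2976, 904, 14209, 479 and 5025 reads (-1.49). OAS3 had 3940, 1221, 4170, 1121 and 2629 (-1.47), and the DNA sensor IFI16 had 329, 94, 1455, 114 and 890 (-1.31). In all 5 the libraries with PSPC1 or PSPC1-Y523F alone were the lowest. PSPC1/PTK6 was the highest in all but OAS3, whose FPKM as deposited was 107 in mock and 103 with PSPC1/PTK6.

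The group as a whole had the same order. Against the 5-library mean its median was -0.05 in mock, -0.59 with PSPC1, 1.41 with PSPC1/PTK6, -0.91 with PSPC1-Y523F and 0.20 with PSPC1-Y523F/PTK6. BST2 (tetherin, which holds budding virus at the membrane) went against the group, with 150, 1331, 2987, 757 and 218 reads, a difference of 3.04. ISG15 (2920 and 2037 reads, -0.34) and IFIT1 (1517 and 951, -0.45) differed less. The OAS genes lie within the lower run on chromosome 12, as 7 members lay within lower runs. Relative to their window medians, 35 of 44 members were below their neighbours and the median was -0.47.

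The promoters of IFI6, OAS3 and BST2 are shown because the first 2 genes were lower and BST2 higher with PSPC1, although each holds the response element. Each line gives the 250 bases before the RefSeq start site in GRCh38.p14, 5′ to 3′ on the gene's strand, for IFI6 at chr1:27672193-27672442 (minus strand), OAS3 at chr12:112938224-112938473 (plus strand) and BST2 at chr19:17405631-17405880 (minus strand). Capitals mark matches to GAAA, any 2 bases and GAAA again, on either strand, and overlapping matches run together.
IFI6: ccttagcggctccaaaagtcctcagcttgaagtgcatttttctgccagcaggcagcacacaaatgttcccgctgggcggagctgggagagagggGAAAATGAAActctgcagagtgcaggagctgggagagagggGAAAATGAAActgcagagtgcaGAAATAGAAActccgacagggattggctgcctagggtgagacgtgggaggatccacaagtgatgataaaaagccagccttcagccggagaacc
OAS3: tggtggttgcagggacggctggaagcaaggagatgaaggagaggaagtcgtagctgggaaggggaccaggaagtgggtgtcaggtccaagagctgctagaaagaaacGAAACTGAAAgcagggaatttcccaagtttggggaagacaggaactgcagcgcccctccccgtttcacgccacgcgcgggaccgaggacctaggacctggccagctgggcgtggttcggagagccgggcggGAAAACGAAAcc
BST2: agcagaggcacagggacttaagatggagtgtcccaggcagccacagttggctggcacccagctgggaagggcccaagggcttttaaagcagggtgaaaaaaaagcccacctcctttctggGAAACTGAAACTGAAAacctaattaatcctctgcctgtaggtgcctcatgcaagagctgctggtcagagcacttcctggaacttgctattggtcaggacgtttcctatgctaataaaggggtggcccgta
The motif occurred 3 times before IFI6 and 2 times each before OAS3 and BST2. It occurred 0 times before OAS1 and IFI16, which were also lower with PSPC1. The OAS1 stretch holds GAAA, a single base and GAAA again, a spacing that the pattern does not count. A promoter without a match can therefore still hold a related element. Of the 36 compared interferon-stimulated genes with a RefSeq promoter, 19 (52.8%) held it, against 2.31% of 9554 promoters of compared genes. The median log2 difference was -0.55 for the 19 with it and -0.60 for the rest. A match is a description of the letters and not of a bound site.

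Several genes of MHC class II, chosen after their values were seen, were lower with PSPC1. The class II transactivator CIITA had 227, 38, 18, 88 and 32 reads (-1.62), HLA-DPA1 had 216, 34, 33, 13 and 5 (-1.84), HLA-DRA had 99, 11, 0, 24 and 0 (-1.80) and HLA-DRB1 had 60, 6, 0, 4 and 0 (-1.52). Mock was the highest of the 5 libraries for these 4 genes, as it was for CD74. HLA-DMA, which helps load peptide, had 122, 76, 163, 37 and 60 reads (-0.42), with mock below PSPC1/PTK6. RFX5, RFXANK and RFXAP, the subunits of the factor that binds class II promoters, differed by 0.22, -0.10 and -0.86, the last on 125 and 51 reads. MHC class I and peptide loading genes had a median of -0.10 over 21 genes and 0 past 2-fold.

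NF-kB chemokines and cytokines had members past 2-fold in both directions, 3 higher and 5 lower of 23. Over all genes compared the shares were 3.38% and 2.19%. CCL2, a monocyte chemoattractant, had 6, 189, 34, 108 and 19 reads (3.20), and CXCL2 had 77 and 230 (1.46). CCL26 (36 and 0 reads, -2.11), CSF3 (65 and 9, -1.49), the feedback inhibitor TNFAIP3 (713 and 201, -1.40) and IL1B (177 and 52, -1.30) were lower. Among growth factor genes, PDGFB had 100, 1326, 738, 1204 and 840 reads, a difference of 3.36, and IGFBP4 had 1758, 7251, 8936, 12134 and 15242 (2.08). Both were higher in every transfectant than in mock. Among immediate early genes, EGR1 (652, 102, 102, 230 and 306 reads, -1.96), ETV4 (-1.12) and NR4A1 (367 and 142 reads) were lower and 0 of 28 higher.

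Genes of DNA replication were lower as a group, and mitotic genes less so. Of 51 genes of G1/S and DNA replication compared, 45 were below 0, with a median of -0.51 and with PRIM2 (357 and 106 reads, -1.34) and CDC6 (1371 and 559, -1.06) past 2-fold. MCM2, of the replicative helicase, had 7632, 3858, 3696, 7049 and 7827 reads (-0.84). The group stood at 0.34 in mock, -0.17 with PSPC1, -0.49 with PSPC1/PTK6, 0.38 with PSPC1-Y523F and -0.05 with PSPC1-Y523F/PTK6, so that PSPC1-Y523F was level with mock. Of 58 G2/M and mitotic genes, 39 were below 0 and 0 past 2-fold, with a median of -0.10. For comparison, 5829 of all 12410 genes were above 0. MKI67 had 5156 and 3080 reads (-0.57) and UBE2C differed by 0.36.

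Other growth-related groups were lower by less than 2-fold in most of their members. The proteasome had 28 of 30 genes below 0 (median -0.26), cytosolic tRNA synthetases and one-carbon enzymes 24 of 25 (-0.33), translation factors 26 of 32 (-0.19) and heat shock proteins 17 of 21 (-0.36). Among all 12410 genes compared, 5829 were above 0. Ribosome biogenesis factors had 52 of 63 below 0 and a median of -0.40, with DDX49 (-1.02) past 2-fold and the 5 rises all RRP genes. Mock was the highest of the 5 libraries for 18 of the 30 proteasome genes, 17 of the 25 synthetase and one-carbon genes and 29 of the 63 biogenesis factors, against 21.1% of all genes compared. By contrast cytosolic ribosomal proteins, 78 compared, had a median of 0.04 and 0 past 2-fold, and nuclear-encoded respiratory chain genes had a median of -0.02 over 69, again with 0 past 2-fold.

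Genes of cholesterol synthesis and uptake were mostly above 0. Of 30 genes compared, 25 were above 0, with a median of 0.26 and MSMO1 (618, 1208, 1397, 419 and 1338 reads, 1.04) past 2-fold. INSIG1 (1575 and 2939 reads, 0.98), FDFT1 (3810 and 6895, 0.92), SREBF2, the master regulator of the pathway (4548 and 7148, 0.77), and SQLE (0.74) followed, while the exporter ABCA1 (-0.60) was lower. PSPC1 was the highest of the 5 libraries for 11 of the 30 genes, and the group stood at -0.06 in mock, 0.19 with PSPC1, -0.14 with PSPC1/PTK6, -0.30 with PSPC1-Y523F and 0.21 with PSPC1-Y523F/PTK6. Over all 12410 genes compared, 5829 were above 0, and PSPC1 was the highest for 15.3%.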

How the data were processed

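The authors deposited, a table per library with raw read counts and FPKM of each gene. The deposited FPKM equal the count divided by the library total and by 1 length per gene. The submitters' processing notes name TopHat2 2.0, HTSeq 0.6.1, edgeR and GRCh38.p12, whereas the study's methods name hg18. Positions in the tables are those of GRCh38 for 97.6% of genes shared with GENCODE 29, which gave gene types and GC content. Dropped were 8 lines of broken annotation text per library. Symbols (57532 of 58302 genes) and promoters came from RefSeq.

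FPKM were quantile normalized over the 8 SK-hep1 and Mahlavu libraries, the study's stated step, and differences were taken as log2(FPKM + 1) where the mean was 1 FPKM or more. A change of 2-fold was counted. Intervals are exact 95% Poisson intervals, or 95% Clopper-Pearson intervals for ratios of reads, and a gene without reads was set at 3 reads. Genes named are the study's own, the 10 largest rises and falls with at least 100 reads outside the mitochondrial genome, and the leading members of 55 gene lists. The calculation was tested on simulated data. Members and lists were chosen with earlier results of these data known. Python 3.11.15 with pandas 2.3.3, and edgeR 4.0.16 and DESeq2 1.42.0 for scaling factors, were used. Some genes are not reported here.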

Additional observations from a re-analysis of the deposited data

How the results depend on the processing

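The counts of genes at least 2-fold higher (419) and lower (272) depended most on how low genes were treated. A pseudocount of 0.1 gave 627 and 452, a pseudocount of 5 gave 180 and 81, and a filter at a mean of 5 FPKM gave 264 and 132. Deposited FPKM, quantile normalization over the SK-hep1 libraries alone, TMM and median-of-ratios scaling, no filter and leaving out the mitochondrial genes gave 394 to 492 higher and 252 to 330 lower. The share of higher calls ran from 51.8%, with GC content and length taken out, to 69.0%, with a pseudocount of 5. Alternatives chosen after seeing the data were GC content and length taken out (340 and 316), differences relative to neighbouring genes (396 and 213) and leaving out the ribosomal RNA-named and mitochondrial genes (399 and 272). Of 641 list medians recomputed, 1 changed sign from at least 0.2: the PSPC1 neighbours on chromosome 13, which stood at -0.59 and came to 0.0038 relative to their own windows, as the subtraction requires. The interferon list ran from -0.65 to -0.37 and the MYC targets from -0.50 to -0.34. Genes richer in GC were higher, with medians from -0.12 in the lowest GC quintile to 0.11 in the highest. No paired analysis was possible because each condition had 1 library. For the same reason nothing here separates the plasmid from differences between cultures or clones.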

Other observations

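Stress and metal genes that the report did not describe were lower with PSPC1 more often than higher. Of 26 NRF2 antioxidant targets, 17 were below 0 and 9 above, with a median of -0.28, and 3 were at least 2-fold lower and 1 higher. FTH1, the ferritin heavy chain, had 14484, 4527, 11428, 3461 and 11879 reads in the order used above, a log2 difference of -1.55. HMOX1, which breaks down heme, had 13866 and 6052 reads in the pair (-1.10), and AKR1C3 was lower on 49 and 9 reads. ABCC3, a drug and bile acid transporter, went the other way, with 88, 628, 743, 552 and 93 reads (2.46). SQSTM1, the autophagy receptor p62, had 40533, 14695, 38651, 12930 and 24071 reads (-1.29), highest in mock and lowest with PSPC1 or PSPC1-Y523F alone, as FTH1 was. MT2A, a metallothionein, had 12726 and 6486 reads (-0.86). Of 36 genes of the unfolded protein and ATF4 response, 26 were below 0, with a median of -0.22 and CHAC1 (324 and 106 reads, -1.21) past 2-fold. For comparison, 5829 of all 12410 genes were above 0, 2.19% were at least 2-fold lower and 3.38% higher.

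Hypoxia and glycolysis genes had a median of 0.10 over 36 genes, with 4 at least 2-fold higher and 1 lower, against 3.38% and 2.19% of all genes. EPAS1, which codes for HIF-2 alpha, had 1094, 3436, 3884, 2079 and 4184 reads (1.68), ENO2 had 233 and 781 (1.68), and the glucose transporters SLC2A3 and SLC2A1 differed by 1.12 and 1.11. ANGPTL4, a secreted inhibitor of lipoprotein lipase, had 4627, 946, 1291, 3437 and 1381 reads (-2.03). Among endothelial genes NOS3, the endothelial nitric oxide synthase, had 17, 265, 282, 266 and 322 reads (2.61), low in mock alone. Of 17 HOX genes compared, 12 were below 0 and 0 past 2-fold, where 5829 of all 12410 genes were above 0. Of 25 p53 targets BBC3 (1316 and 2679 reads, 1.09) was the only one past 2-fold. By gene type, protein-coding genes had a median of -0.04 over 11217 genes, antisense genes 0.17 over 336 and lincRNAs 0.08 over 299.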
